A study of Mus musculus with 64 samples.

Results

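The genes described here are 34 of the 49671 genes in a table of read counts from mouse microglia, the resident macrophages of the brain. They are 18 enzymes of cholesterol synthesis, 5 enzymes of fatty acid synthesis, 5 proteins that control the SREBP transcription factors, the sterol carrier Stard4, the 2 liver X receptors (LXR) and 3 genes that LXR switches on. They were chosen by name for their place in the pathway, with the SREBP-driven synthesis genes kept apart from the LXR-driven genes Abca1, Abcg1 and Mylip. No measured value enters that rule, but the list was drawn up with earlier results of these data known. All 34 had reads in the 64 libraries.

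Total RNA was sequenced from microglia of the hippocampus and the frontal cortex of young adult male C57BL/6 mice (the strain as labelled, C57BL6/N in the study's methods), for which the labels name no transgene or other engineered allele. The cells were pulled down with magnetic beads against CD11b, a surface protein of microglia that other macrophages and myeloid cells also carry, after mechanical dissociation in the cold. The mice were kept on a reversed light cycle. Each library is labelled with a region, a phase (Day or Night) and a condition (Ctr0, Ctr1, Soci or Cogn), which gives 16 groups of 4 libraries. The study names ZT4 in the light and ZT16 in the dark phase as the sampling times (ZT, hours after lights on), and the labels do not say which of them Day and Night stand for. They also do not say what the 4 conditions were or whether libraries came from separate animals, so p-values measure the spread between libraries, which may be partly technical.

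Cholesterol in the brain is made locally, because lipoproteins of the blood do not cross the blood-brain barrier. Synthesis starts from acetyl-CoA, passes through mevalonate, isoprenoid units, squalene and lanosterol, and ends in a series of changes to the sterol ring. When membrane sterol is low, the escort protein SCAP carries the SREBP factors (encoded by Srebf1 and Srebf2) to the Golgi, where they are cut and released to switch on the synthesis genes, and INSIG proteins hold them back when sterol is plentiful. When oxysterols build up, LXR switches on export through ABCA1 and ABCG1 and the ubiquitin ligase MYLIP, which removes lipoprotein receptors from the cell surface.

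SREBP proteins bind sterol response elements, which often lie beside an inverted CCAAT box bound by the factor NF-Y. RefSeq promoter windows (build GRCm38.p6, 250 bases before to 50 bases after each start) were held for 27 of the 34 genes. The element TCACNCCAC, searched on both strands, lay in the window of 1 of these 27 genes, Hmgcs1, and in 1.44% of the 27025 genes with a window. Its shorter core CACNCCAC, which is contained in that element, lay in 3 of the 27 (Acat2, Hmgcs1 and Insig1) and in 7.12% of genes. The inverted CCAAT box ATTGG, also searched on both strands, lay in 20 of the 27 and in 41.1% of genes. A pair of AGGTCA sites 4 bases apart, the arrangement that LXR binds with its partner RXR, lay in none of the 27 windows and in 0.0148% of genes. Only this exact repeat was searched, and it lay in 4 of the 27025 genes. Its absence therefore says nothing of looser sites near the start of the LXR target genes, and Abcg1 had no window. The stretches below show the element or its core in Hmgcs1 and Insig1, and the inverted CCAAT box in Lss and Idi1, whose transcripts are described further on. Capitals mark the motif, each stretch reads along the gene's strand, and the Insig1 match is the core read on the other strand.
Hmgcs1, 137 to 129 bases before the start: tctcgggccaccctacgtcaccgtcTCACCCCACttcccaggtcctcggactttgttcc
Insig1, 9 to 2 bases before the start: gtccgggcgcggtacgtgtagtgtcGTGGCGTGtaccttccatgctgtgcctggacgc
Lss, 62 to 58 bases before the start: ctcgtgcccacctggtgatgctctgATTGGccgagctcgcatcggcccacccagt
Idi1, 45 to 41 bases before the start: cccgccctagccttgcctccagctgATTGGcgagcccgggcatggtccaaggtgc
A match of letters is not a bound site, and the windows hold no measurement of binding.

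The libraries held between 10156071 and 84472229 counts, with a median of 17649554 in hippocampus and 13417898 in frontal cortex. Of all counts together Gm26917 held 35.4%, Gm42418 5.56%, mt-Rnr2 2.73% and Gm23935 2.3%. These are the abundant loci over 1% of counts named further on, and library totals include them. All 10 microglial marker genes were read in every library, with a summed level of at least 12200 CPM, where CPM (the usual depth-scaled count of RNA sequencing) is a gene's count relative to the library's total after scaling by the trimmed mean of M-values (TMM). Marker genes of several other cell types moved with the phase, and those of some did not. In hippocampus the border macrophage list had 8 of 8 genes higher in day (median log2 change 0.78), the astrocyte list had 8 of 10 lower and 1 higher (median −0.78), the oligodendrocyte list had 7 of 9 lower and the choroid plexus list had 8 of 8 lower (median −2.60). In frontal cortex 7 of 8 border macrophage genes were higher, 7 of 10 astrocyte genes lower (median −1.04), 8 of 10 neuron genes lower and 4 of 9 oligodendrocyte genes lower. The cortical endothelial, choroid plexus and neutrophil or monocyte lists had none higher or lower, of 8, 3 and 4 genes tested. In hippocampus 2 of 10 neuron and 3 of 8 endothelial genes were lower. Over all genes 42.2% were higher or lower in hippocampus and 41.8% in frontal cortex, by the test described further on. The summed astrocyte level ran from 392 to 1910 CPM at night and from 358 to 583 CPM in day in hippocampus, and from 325 to 2610 and from 368 to 701 CPM in frontal cortex. The microglial genes themselves were higher in day, 8 of 10 in hippocampus and 5 of 10 in frontal cortex. Fewer cells of a type and less RNA per cell cannot be told apart in such libraries.

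The clock genes checked the phase labels. Nr1d1, a clock repressor, had a median of 14.5 CPM in night and 4.07 CPM in day in hippocampus, and 12.1 and 4.03 CPM in frontal cortex. Cry1, another clock repressor, went from 4.63 to 11.6 CPM and from 4.79 to 11.5 CPM. Per2 went from 12.7 to 29.1 CPM and from 9.19 to 22.3 CPM. Arntl went from 18.9 to 11.8 CPM and from 17.9 to 12.4 CPM. The 2 labels therefore separated 2 states of the clock in both regions, and they are used below as they stand. In mice on an ordinary light cycle Nr1d1 is high in the light phase, so the label Day is not read here as light. Throughout the text, day and night name the labels and not light and dark.

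The 34 genes differed in level by more than 2 orders of magnitude per kilobase of exon, which makes genes of different length comparable. Abca1 (median 60.6 CPM per kb over the 64 libraries, range 35.5 to 87.4) and Mylip (60.1, range 40.7 to 87.3) stood highest, and their ranges covered each other. Scd2, a desaturase that makes monounsaturated fatty acids, followed at 24.8 CPM per kb (range 18.9 to 73.2), and then Abcg1 at 15.8 (range 11.9 to 21.8). Among the receptors Nr1h2 (LXR beta) stood at 10.7 CPM per kb and Nr1h3 (LXR alpha) at 0.525, and their ranges did not meet. The control genes Scap, Insig2, Srebf1, Srebf2 and Insig1 lay between 7.48 and 3.12 CPM per kb.

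**Figure D1:**
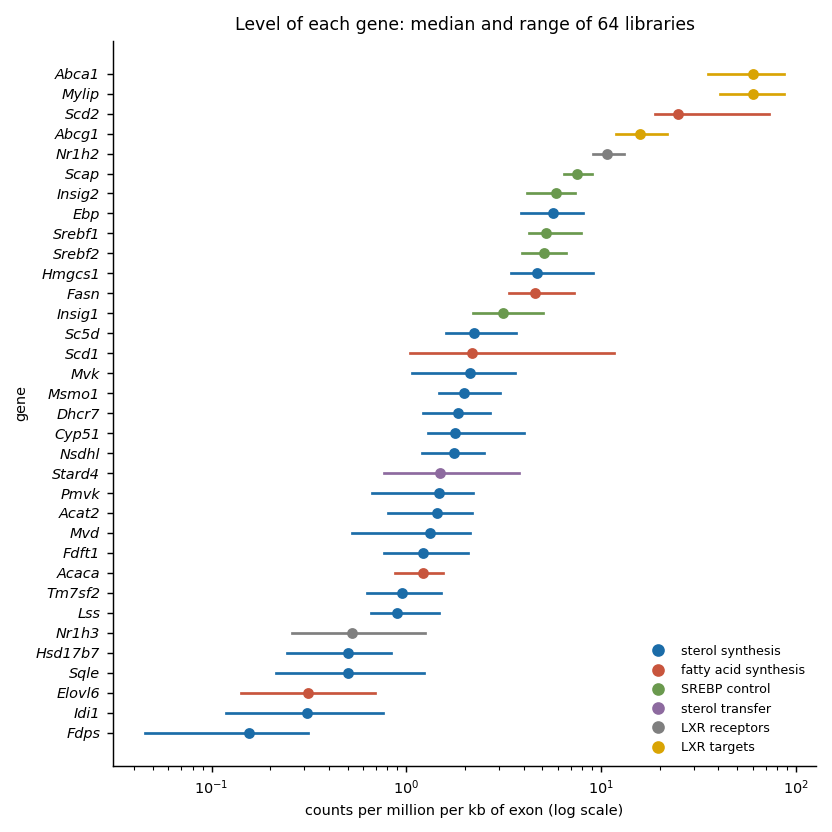
Level of each of the 34 genes in CPM per kb of exon, on a log scale, with the median (point) and the range (line) of 64 libraries, coloured by role. Abca1 and Mylip stand at 60.6 and 60.1, and Fdps is last at 0.155.

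The enzymes of sterol synthesis were low. Ebp, an isomerase of a late step, was the highest of the 18 at 5.63 CPM per kb, Hmgcs1, which makes the precursor of mevalonate, stood at 4.70, and the other 16 lay at 2.23 or below. Fdps, which makes farnesyl diphosphate, was the lowest of all 34 genes at 0.155 CPM per kb, with between 2 and 90 reads per library. The ranges of neighbours in the order overlapped throughout the sterol enzymes. Some counts are uncertain because reads are shared with near copies. Of the 100-base stretches of the transcripts, 28.9% in Acat2 also occur in Acat3, and 23.7% in Acaca, 21.4% in Fdps and 15.8% in Idi1 also occur in predicted genes or pseudogenes. Exons of other genes on the same strand overlap 26.7% of the Fdps exon bases (Gm43738) and 12.1% of those of Tm7sf2 (Vps51). On the opposite strand they overlap 18.3% in Fdft1 (Ctsb), 13.2% in Scap and 12.1% in Hmgcs1. How far these overlaps lowered or raised the counts was not tested.

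To ask whether the pathway differs between the phases, 16 day libraries were set against 16 night libraries within a region, all 4 conditions together. In hippocampus, where all 34 genes passed the filter on low counts, 17 were lower and 4 higher in day at an adjusted p under 0.05 (quasi-likelihood F test of edgeR, Benjamini-Hochberg adjustment over 15527 genes). Over all genes tested 42.2% passed that threshold, 18.8% lower and 23.4% higher, so a call by itself was common in this comparison. Of the 23 synthesis enzymes 15 were lower and 1 higher, with a median log2 change of −0.28 where the median of all genes was 0.02. In frontal cortex 33 genes were tested, since Fdps fell below the filter, and again 17 were lower and 4 higher. There 41.8% of the 14975 genes passed, 21.3% lower and 20.6% higher. The 22 synthesis enzymes tested had 15 lower and 1 higher and a median of −0.36 against −0.02 for all genes.

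**Figure D2:**
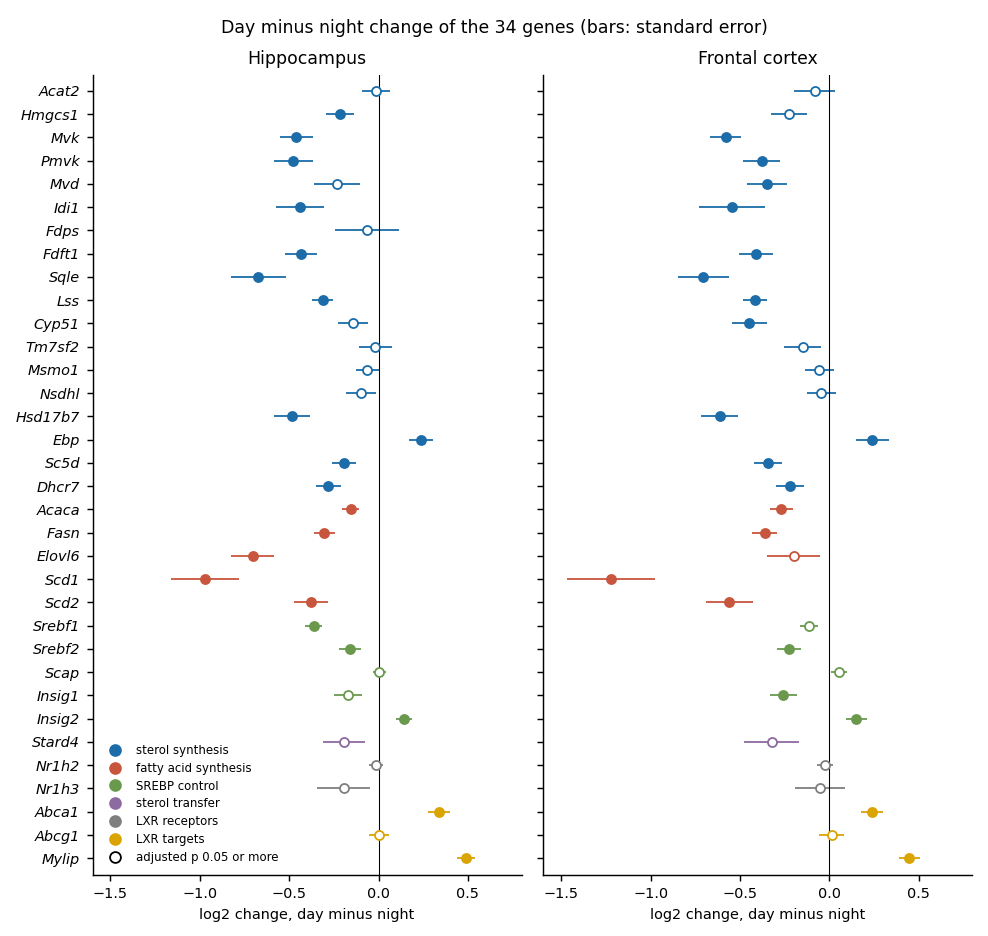
Log2 change of each gene, day minus night, in hippocampus (left) and frontal cortex (right), with the standard error as a bar, filled points for adjusted p under 0.05 and colours for roles. Most enzymes lie left of 0, with Scd1 farthest at −0.97 and −1.22, while Ebp, Insig2, Abca1 and Mylip lie to the right in both regions.

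The upper part of the sterol pathway turns acetyl-CoA into squalene. Mvk, which phosphorylates mevalonate (gene on chromosome 5, 114444269 to 114460591, GRCm38), ran from 5.24 to 8.79 CPM (median 6.67) in the hippocampal night libraries and from 3.08 to 7.06 CPM (median 4.66) in the day libraries. In frontal cortex it ran from 5.32 to 9.65 CPM (median 6.80) at night and from 2.86 to 6.15 CPM (median 4.64) in day. In both regions most day libraries lay under the lowest night library, 11 of 16 in hippocampus and 12 of 16 in frontal cortex. The log2 change was −0.46 ± 0.09 (SE, adjusted p 0.000116) in hippocampus and −0.58 ± 0.09 (adjusted p 3.74e-06) in frontal cortex.

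Pmvk, the next kinase, had a median of 3.05 CPM at night and 2.22 CPM in day in hippocampus, and 11 of its 16 day libraries lay under the lowest night library. Its log2 change was −0.48 ± 0.11 (adjusted p 0.000644) there and −0.38 ± 0.10 (adjusted p 0.00414) in frontal cortex. Idi1, which interconverts the isoprenoid units, was lower in day in both regions at −0.44 and −0.55. Fdft1, squalene synthase and the first enzyme committed to sterols, had hippocampal medians of 5.77 CPM at night and 4.26 CPM in day, a log2 change of −0.43 ± 0.09 (adjusted p 0.000164), with −0.41 ± 0.09 (adjusted p 0.000748) in frontal cortex. Hmgcs1 passed in hippocampus (−0.22, adjusted p 0.0215) and not in frontal cortex (−0.23, adjusted p 0.0653), and Mvd, the decarboxylase of mevalonate diphosphate, the other way round (−0.23, adjusted p 0.139, and −0.35, adjusted p 0.0119). Neither difference between regions passed its own test (adjusted p 0.969 and 0.928). Acat2, which joins acetyl units at the entry, gave −0.02 and −0.08 and passed in neither region, and Fdps, tested in hippocampus alone, gave −0.07 (adjusted p 0.793).

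The steps from squalene to lanosterol fell in day in both regions. Sqle, squalene epoxidase and a slow step of the pathway (chromosome 15, 59315077 to 59331192), ran from 2.00 to 6.84 CPM (median 3.89) at night and from 1.55 to 4.04 CPM (median 2.22) in day in hippocampus. In frontal cortex the medians were 3.56 and 2.21 CPM. The phases overlapped, with 7 of 16 hippocampal and 10 of 16 cortical night libraries above the highest day library. Sqle had the largest fall of the sterol enzymes in each region, −0.67 ± 0.15 (adjusted p 0.000683) and −0.70 ± 0.14 (adjusted p 0.000192). Lss, lanosterol synthase, moved less and more evenly, from a median of 10.3 to 8.07 CPM in hippocampus and from 11.7 to 9.0 CPM in frontal cortex. In frontal cortex 14 of 16 day libraries of Lss lay under the lowest night library. Its log2 changes were −0.31 ± 0.06 (adjusted p 5.97e-05) and −0.42 ± 0.07 (adjusted p 1.19e-05).

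The late steps, which remodel the ring and its side groups, were split. Hsd17b7, a ketoreductase (chromosome 1, 169949535 to 169969241), went from a median of 2.75 to 1.96 CPM in hippocampus and from 3.29 to 2.01 CPM in frontal cortex, with log2 changes of −0.48 ± 0.10 (adjusted p 0.000191) and −0.61 ± 0.10 (adjusted p 2.49e-05). Cyp51, which removes a methyl group from lanosterol, passed in frontal cortex (−0.45 ± 0.10, adjusted p 0.000433) and not in hippocampus (−0.14 ± 0.08, adjusted p 0.162), a difference between regions that did not pass (adjusted p 0.454). Sc5d, a sterol desaturase, and Dhcr7, the reductase of the last step of one branch, were lower in day in both regions, at −0.19 and −0.34 and at −0.28 and −0.22. Ebp was higher in day, from a median of 11.6 to 13.4 CPM in hippocampus and from 11.7 to 14.6 CPM in frontal cortex, with log2 changes of 0.24 in each (adjusted p 0.00355 and 0.0338). It passed under 12 of 23 processing alternatives in hippocampus and 8 of 21 in frontal cortex, and turned to as low as −0.15 in hippocampus with the levels of cell type markers as terms of the fit. Tm7sf2, Msmo1 and Nsdhl, enzymes of the steps in between, did not pass in either region and lay between −0.15 and −0.02.

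All 5 enzymes of fatty acid synthesis fell in hippocampus and 4 in frontal cortex. Acaca, which makes malonyl-CoA, went from a median of 22.1 to 19.3 CPM in hippocampus, a log2 change of −0.16 (adjusted p 0.0103), and −0.27 (adjusted p 0.00107) in frontal cortex. Fasn, fatty acid synthase, ran from 45.4 to 74.0 CPM (median 58.7) at night and from 41.0 to 53.5 CPM (median 45.9) in day in hippocampus, and from 46.5 to 79.9 (median 57.0) and from 36.8 to 52.5 CPM (median 46.5) in frontal cortex. Of the night libraries 10 and 11 of 16 lay above the highest day library. Its log2 changes were −0.30 ± 0.06 (adjusted p 7.04e-05) and −0.36 ± 0.07 (adjusted p 8.49e-05).

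Elovl6, which lengthens palmitate, went from a median of 2.89 to 1.81 CPM in hippocampus (−0.70 ± 0.12, adjusted p 1.93e-05) and from 2.02 to 1.81 CPM in frontal cortex (−0.20 ± 0.15, adjusted p 0.291). The day medians were alike in both regions and the night median was higher in hippocampus. The night ranges overlapped, 1.81 to 4.46 CPM in hippocampus and 1.18 to 3.93 CPM in frontal cortex. The difference between the regions in the change did not pass (−0.54 ± 0.19, unadjusted p 0.00601, adjusted p 0.182). Scd1, the inducible stearoyl-CoA desaturase (chromosome 19, 44394455 to 44407879), had the largest fall of the 34 genes. It ran from 6.67 to 41.5 CPM (median 14.3) at night and from 6.08 to 11.3 CPM (median 7.56) in day in hippocampus. In frontal cortex it ran from 7.59 to 56.8 CPM (median 19.0) at night and from 5.15 to 24.7 CPM (median 8.70) in day. Night libraries were therefore spread widely and reached down into the day range. The log2 changes were −0.97 ± 0.19 (adjusted p 0.000107) and −1.22 ± 0.25 (adjusted p 2.00e-04), day levels of 0.510 and 0.429 times those of night. Scd2, the desaturase of the same cluster on chromosome 19, changed by −0.38 and −0.56, and 2.58% of the 100-base stretches of Scd1 also occur in other genes, Scd2 among them.

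**Figure D3:**
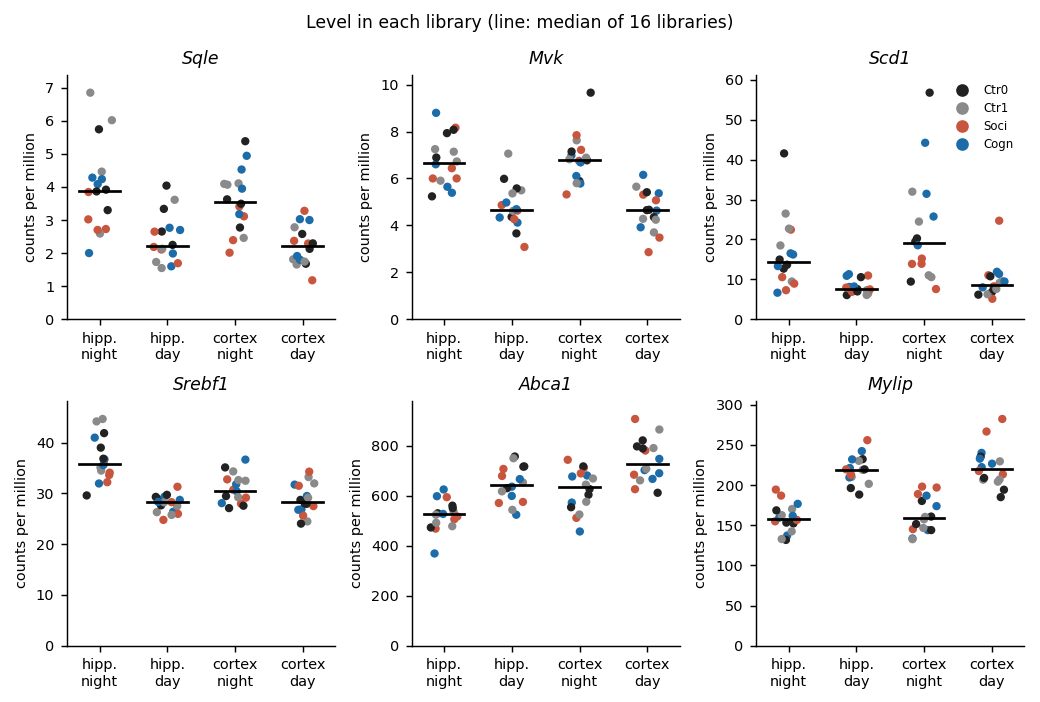
Level in CPM of Sqle, Mvk, Scd1, Srebf1, Abca1 and Mylip in each of the 64 libraries, by region and phase, with the median of 16 libraries as a line and colours for conditions. Scd1 is spread from 6.67 to 41.5 in the hippocampal night libraries, while the day libraries of Mylip lie almost wholly above its night libraries in both regions.

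Of the genes that control SREBP, Srebf1, the factor best known for fatty acid genes (chromosome 11, 60199089 to 60222581), ran from 29.6 to 44.6 CPM (median 35.7) at night and from 24.8 to 31.3 CPM (median 28.2) in day in hippocampus. In frontal cortex it ran from 27.1 to 36.6 CPM (median 30.5) and from 24.0 to 34.3 CPM (median 28.4). In hippocampus 15 of 16 night libraries lay above the highest day library, while in frontal cortex 3 did. No gene of the 34 was without overlap between the phases in either region. Among all genes tested 0.122% were wholly lower and 0.419% wholly higher in day in hippocampus, and 0.0534% and 0.307% in frontal cortex. The log2 change of Srebf1 was −0.36 ± 0.05 (adjusted p 5.34e-07) in hippocampus and −0.12 ± 0.05 (adjusted p 0.0679) in frontal cortex.

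Srebf2, the factor best known for sterol genes, fell in both regions, from a median of 38.9 to 34.3 CPM (−0.16 ± 0.06, adjusted p 0.0395) and from 38.5 to 34.3 CPM (−0.23 ± 0.07, adjusted p 0.00575). It passed under 9 of 23 alternatives in hippocampus and 15 of 21 in frontal cortex, and its sign turned in hippocampus with the astrocyte or oligodendrocyte marker level (0.00899 and 0.0203) or those of 6 or 7 cell types (0.0314 and 0.00879) as terms of the fit, and in frontal cortex with the neuron marker level (0.0291). Insig1, itself a target of SREBP, fell in frontal cortex (−0.26 ± 0.08, adjusted p 0.00615) and gave −0.17 ± 0.08 (adjusted p 0.0758) in hippocampus. Its relative Insig2 moved the opposite way, from 19.1 to 20.5 CPM and from 19.3 to 21.3 CPM, with log2 changes of 0.14 ± 0.04 (adjusted p 0.0111) and 0.15 ± 0.06 (adjusted p 0.0357), the first of which came to −0.01 when libraries were scaled by their totals alone, and Insig2 passed under 10 of 23 and 7 of 21 alternatives. Scap, the escort, had medians of 56.2 and 55.8 CPM in hippocampus and 53.1 and 55.8 CPM in frontal cortex and passed in neither (adjusted p 0.922 and 0.321). Stard4, which carries sterol between membranes, gave −0.19 ± 0.12 (adjusted p 0.18) and −0.32 ± 0.15 (adjusted p 0.092).

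On the LXR side the receptors gave no call and 2 of the 3 target genes were higher in day. Nr1h2 had medians of 37.0 and 36.2 CPM in hippocampus and 35.4 and 35.9 CPM in frontal cortex (adjusted p 0.805 and 0.677). Nr1h3 reached at most 3.11 CPM in any library and gave −0.20 ± 0.15 (adjusted p 0.302) and −0.05 ± 0.14 (adjusted p 0.78). Abca1, the exporter that loads cholesterol and phospholipid onto apolipoproteins (chromosome 4, 53030787 to 53159895), ran from 368 to 624 CPM (median 525) at night and from 523 to 756 CPM (median 644) in day in hippocampus. In frontal cortex it ran from 456 to 743 CPM (median 635) and from 611 to 906 CPM (median 727). Of the day libraries 10 and 8 of 16 lay above the highest night library, and the log2 changes were 0.34 ± 0.06 (adjusted p 3.99e-05) and 0.24 ± 0.06 (adjusted p 0.00206).

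Mylip (chromosome 13, 45389742 to 45412022) ran from 132 to 194 CPM (median 158) at night and from 188 to 256 CPM (median 219) in day in hippocampus. In frontal cortex it ran from 133 to 198 CPM (median 159) and from 185 to 282 CPM (median 220). All but 1 hippocampal and all but 2 cortical day libraries lay above the highest night library (15 and 14 of 16). The log2 changes, 0.49 ± 0.05 (adjusted p 5.92e-09) and 0.45 ± 0.06 (adjusted p 9.10e-07), had the lowest p of the 34 genes in each region. Abcg1, the exporter that passes sterol to formed lipoprotein particles, had medians of 112 and 107 CPM in hippocampus and 119 and 123 CPM in frontal cortex and log2 changes of 0.00 and 0.01 (adjusted p 0.973 and 0.903). Abca1 passed under 16 of 23 processing alternatives in hippocampus and 13 of 21 in frontal cortex, and Mylip under 20 and 21 of them. The call of Abca1 was lost in both regions with library totals alone (0.18, adjusted p 0.275, and 0.17, adjusted p 0.202), and its change turned to −0.01 and −0.03 in frontal cortex with the marker levels of 6 and of 7 cell types as terms of the fit. The microglial markers had a median log2 change of 0.29 in hippocampus and 0.22 in frontal cortex, and with their level as a term Abca1 gave 0.16 (adjusted p 0.0726) and 0.10 (adjusted p 0.136).

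These calls were read again with a marker score, the mean centred log2 CPM of a cell type's markers in a library, added as a term of the fit. With the astrocyte score 7 members were lower and 2 higher in day in hippocampus, and 4 lower and 1 higher in frontal cortex. The share of all genes lower in day was then 9.70% and 9.61%. With the border macrophage score the counts were 2 lower and 1 higher (2.25% of all genes lower) and 4 lower and 1 higher (4.13%). With the oligodendrocyte score they were 3 lower and 1 higher in hippocampus and 12 lower and 1 higher in frontal cortex, where 8.21% and 14.2% of all genes were lower. With the neuron score they were 15 lower and 4 higher and 3 lower and 1 higher, where 18.6% and 8.14% of all genes were lower. With the astrocyte, oligodendrocyte, neuron, endothelial, choroid plexus and border macrophage scores together no member passed in hippocampus (1.36% of all genes did), and 2 were lower and 1 higher in frontal cortex (11.7% of all genes). Phase and scores moved together, so such a fit also takes up change that they share.

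**Figure D4:**
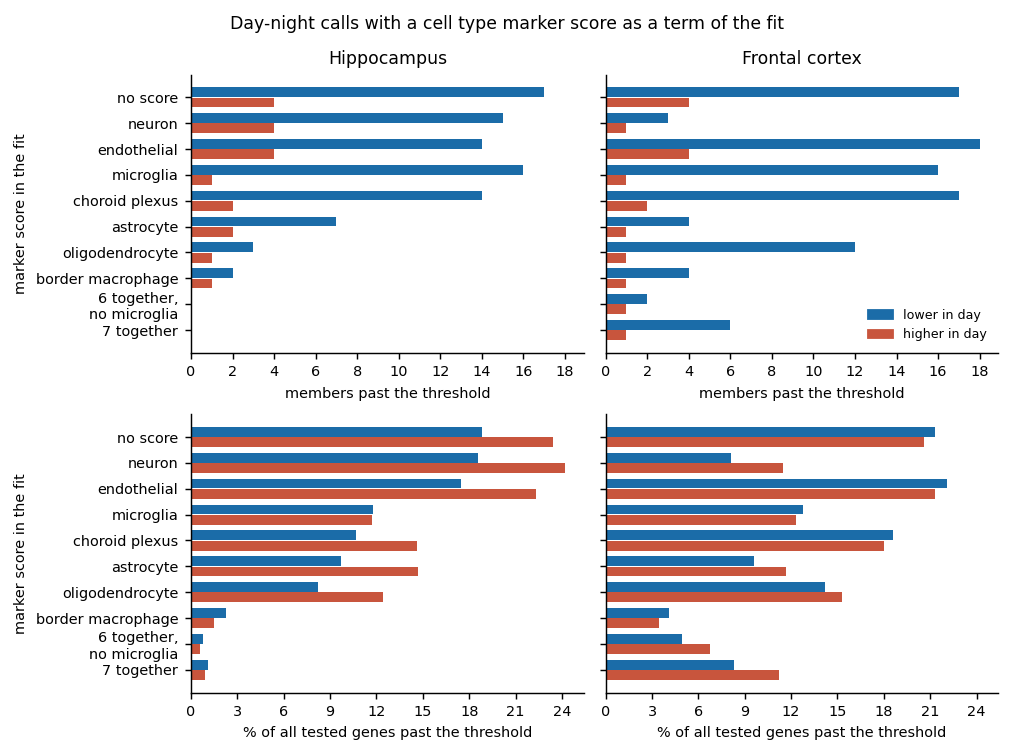
Number of the 34 genes past the threshold (top) and percent of all tested genes past it (bottom), lower or higher in day, with no marker score and with the score of each cell type, of 6 types together or of 7 types together as terms of the fit. The 17 lower members of each region drop to 7 and 4 with the astrocyte score and to 2 and 4 with the border macrophage score.

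With the astrocyte score some genes lost their call and others kept it. Differences between genes in that loss were not tested, and the set that kept a call varied with the score. Scd1 gave −0.10 (adjusted p 0.442) in hippocampus and −0.19 (adjusted p 0.0996) in frontal cortex once the astrocyte score was in the fit. Sqle gave −0.46 (SE 0.187, adjusted p 0.0724) and −0.39 (SE 0.145, adjusted p 0.0504) with that score. Mvk kept its call at −0.43 (SE 0.113, adjusted p 0.0045) and −0.49 (SE 0.0979, adjusted p 0.00055). In hippocampus its change was no larger than that of Sqle, and its standard error was smaller. Mylip gave 0.42 (adjusted p 5.57e-06) and 0.39 (adjusted p 0.000218), and Srebf1 gave −0.29 (adjusted p 0.000393) in hippocampus. Abca1 gave 0.26 (adjusted p 0.00909) in hippocampus and lost its call in frontal cortex at 0.13 (adjusted p 0.169). In frontal cortex Mvk, Hsd17b7 and Mylip passed under each of the 21 alternatives run. In hippocampus no member passed under all of its 23 alternatives, and Srebf1 and Mylip passed under 20 of them. The share of all genes that passed under every alternative was not counted in either region, so these counts have no background beside them.

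Within the 4 conditions, each with 4 day and 4 night libraries in a region, the direction recurred for many members and was mixed for others. The pairs of condition and region are parts of the pooled comparison and give no separate support. The share of all genes with the same sign in every pair was not counted. Of the 8 pairs of condition and region, Mylip was higher in day in 8 and passed the threshold in 7, with log2 changes from 0.35 to 0.55. Abca1 was higher in 8 and passed in 2. Ebp and Insig2 were also higher in 8 and passed in none. Of all genes 13.2% passed in Ctr0, 12.5% in Ctr1, 8.08% in Soci and 5.32% in Cogn in hippocampus, and 5.47%, 4.35%, 6.51% and 5.86% in frontal cortex. Hmgcs1, Idi1, Fdft1, Cyp51, Sc5d, Dhcr7 and Acaca were lower in day in 8 of 8 pairs, and Mvd, Nsdhl, Elovl6 and Insig1 in 7. Mvk, Pmvk, Sqle, Lss, Hsd17b7, Fasn, Scd1, Scd2, Srebf1 and Srebf2 were also lower in day in 8 of 8 pairs. Scd1 passed in 4 of them, Mvk, Scd2 and Srebf1 in 3 and Srebf2 in none. Msmo1, Stard4 and Nr1h3 were lower in day in 6 of 8 pairs and Acat2 and Fdps in 5. Tm7sf2, Nr1h2 and Abcg1 were lower in 4 pairs and Scap in 3. The size of the Scd1 change was uneven, from −1.77 in Ctr0 to −0.01 in Soci, both in frontal cortex. In hippocampal Ctr0, which is neither of these extremes, the Scd1 change was −1.37. There Scd1 ran from 12.7 to 41.5 CPM at night, with 41.5 in a single library and the rest at 15.0 or below. In day it ran from 6.08 to 10.6 CPM in that group. In the cortical Soci libraries Scd1 ran from 7.59 to 15.2 CPM at night and from 5.15 to 24.7 CPM in day.

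**Figure D5:**
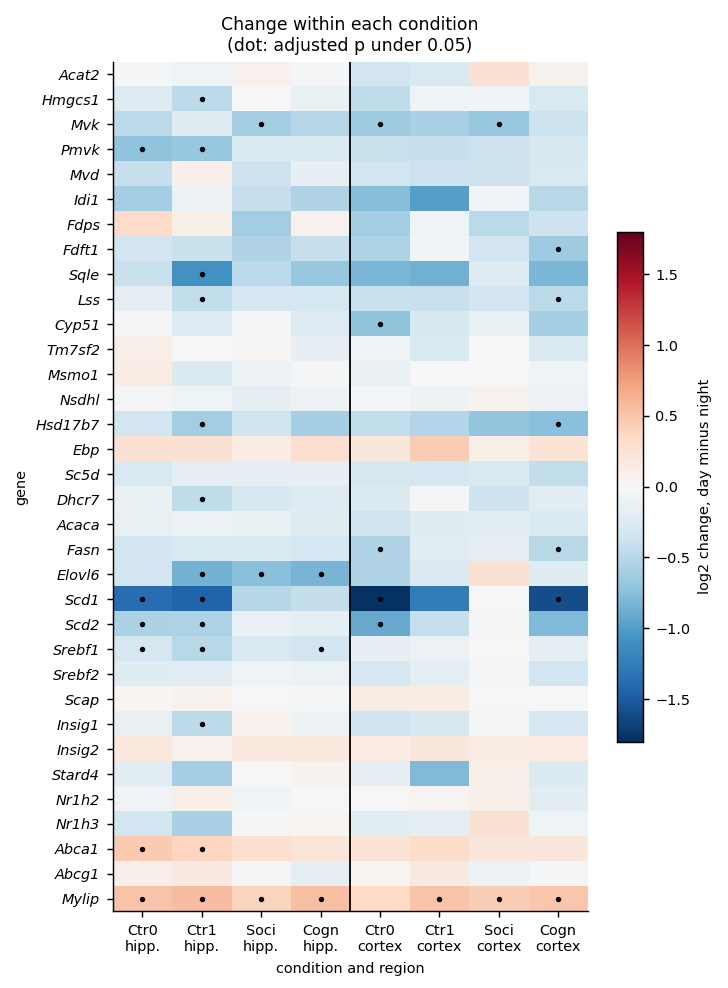
Log2 change of each gene, day minus night, within each condition (4 day and 4 night libraries) in hippocampus (left) and frontal cortex (right), with a dot for adjusted p under 0.05. Mylip is dotted in 7 of 8 columns, and Scd1 ranges from −1.77 to −0.01.

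The unequal Scd1 changes were tested as such. Whether the day-night change differed among the 4 conditions was not shown for any of the 34 genes. Scd1 had the lowest unadjusted p in both regions, 0.11 in hippocampus and 0.0383 in frontal cortex (adjusted p 1 in frontal cortex), and 1 of 34 genes was under an unadjusted 0.05 in frontal cortex and 0 in hippocampus. Over all genes 0% passed in hippocampus and 0.00616% in frontal cortex. Averaged over the phases, the 4 conditions differed in none of the 34 genes in either region (edgeR, 0% of all genes in each), and DESeq2 called none of them either. The lowest unadjusted p was 0.0289 for Msmo1, a sterol demethylase, in hippocampus (adjusted p 0.668) and 0.0091 for Mylip in frontal cortex (adjusted p 0.72), and 1 of 34 genes was under an unadjusted 0.05 in each region.

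Hippocampus was compared with frontal cortex over all 64 libraries, averaged over the phases. Of the 34 genes 2 were higher and 5 lower in hippocampus, where 10.4% and 6.17% of all 16069 genes were. Abca1 was lower in hippocampus, with a log2 difference of −0.22 ± 0.04 (adjusted p 6.52e-05), and so was Abcg1 with −0.15 ± 0.04 (adjusted p 0.00961). Lss was lower (−0.14 ± 0.04, adjusted p 0.023), as were Cyp51 and Scd2. With the astrocyte score in the fit these calls ended for Lss (−0.10, adjusted p 0.0778), Cyp51 (−0.08, adjusted p 0.221) and Scd2 (−0.05, adjusted p 0.304), while Abca1 and Abcg1 stayed past the threshold. Elovl6 (0.28 ± 0.10, adjusted p 0.0348) and Srebf1 (0.10 ± 0.03, adjusted p 0.0375) were higher in hippocampus. All 8 choroid plexus markers were also higher in hippocampus (median 2.89) and 4 of 10 astrocyte markers lower. Of the neutrophil and monocyte markers 5 of 6 tested were lower in hippocampus (median −0.77), as were 3 of 8 border macrophage and 3 of 10 microglial markers, and the part of these cells in the differences was not tested by a separate measurement. These region calls were small and depended on the libraries used, with 1 to 5 members lower and 0 to 1 higher when 1 replicate number was left out. The count of higher members moved by over 1.5 times under 13 of 16 alternatives, and with library totals alone Elovl6 gave 0.17 (adjusted p 0.186) and Srebf1 turned to −0.01 (adjusted p 0.913).

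The day-night change itself differed between the regions for 1 gene of the 34, Srebf1, and for 1.19% of all genes (0.859% with a lower and 0.33% with a higher change in hippocampus). In the joint fit of both regions its change was lower in hippocampus, with a difference of −0.29 ± 0.07 (adjusted p 0.0155), where the separate fits gave −0.36 in hippocampus and −0.12 in frontal cortex. With the astrocyte score in the fit it was −0.30 (adjusted p 0.00801). Without the 3 largest libraries, of at least 62238045 counts (replicate 4 of the hippocampal Night Soci, Night Cogn and Day Cogn groups) no member passed, and none passed without replicate 1, 2 or 4. The share of all genes with a lower change was 0.563% without those libraries. It was 0.188%, 0.0502% and 0.287% without replicates 1, 2 and 4.

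Further genes of the same pathway, 23 in all, were read by counts. In hippocampus 22 were tested, of which 13 were higher and 4 lower in day, with a median log2 change of 0.15, and in frontal cortex 11 were higher and 5 lower of 22, with a median of 0.10. Of all genes 23.4% were higher and 18.8% lower in hippocampus and 20.6% and 21.3% in frontal cortex, and the list was not tested against the synthesis enzymes. Acly, Mid1ip1, Elovl1, Elovl5, Ggps1, Mbtps1, Rnf139, Rxra, Rxrb and Npc2 passed as higher in both regions, and Acss2, Me1, Fads2 and Nceh1 as lower in both. Fads1, Mbtps2 and Soat1 passed as higher in hippocampus and Acsl3 as lower in frontal cortex, and Aacs, Lpcat3 and Abcg4 passed in neither. Ch25h fell below the filter in both. Me1, the malic enzyme that supplies NADPH for fatty acid synthesis, was lower in day, at −1.48 ± 0.18 (adjusted p 6.67e-08) in hippocampus and −1.09 ± 0.25 (adjusted p 0.000744) in frontal cortex. Fads2, a desaturase of polyunsaturated fatty acids, was lower, at −1.10 ± 0.24 (adjusted p 0.000516) in frontal cortex. Elovl5, an elongase of polyunsaturated fatty acids, was higher by 0.34 ± 0.05 (adjusted p 2.88e-06) and Rnf139, a ubiquitin ligase of the endoplasmic reticulum, by 0.33 ± 0.05 (adjusted p 4.55e-06) in hippocampus. Rxra, a partner receptor of LXR, was higher by 0.25 ± 0.06 (adjusted p 0.000674) in frontal cortex.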

How the data were processed

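The values deposited by the authors are raw counts per gene, not scaled for depth or length. Per the labels and the study's methods, ribosomal RNA was depleted, single-end reads were mapped with STAR 2.7.3a to GRCm38.p5 and assigned to genes with featureCounts of Subread 2.0.0. The strand setting and the handling of reads with several positions are not given in the sources used here. Symbols, coordinates and exon lengths came from GENCODE M21 (GRCm38), and 49326 of 49671 identifiers were matched. Promoters came from RefSeq.

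Genes were filtered with filterByExpr and scaled by TMM, and tested in R 4.3.3 with edgeR 4.0.16 (quasi-likelihood F test), with Benjamini-Hochberg adjustment over all genes tested and a threshold of 0.05. Standard errors were obtained as the absolute log2 change over the root of its F statistic. Log2 CPM used a prior count of 2. Day-night fits used the 32 libraries of a region, condition fits 8 phase and condition means, and region fits all 64 libraries. DESeq2 1.42.0, other scalings, no filter, marker scores and left-out replicates were alternatives. Fits were also run on simulated counts, drawn independently with the same spread for every gene. Those settings are simpler than these data, so that run checked the code and not the error rates here. Full statistics were planned for the 5 sterol and 2 fatty acid enzymes of lowest p per day-night comparison, for the control and LXR genes whatever their p, for the 5 members of lowest p between regions, and for the 3 further genes of lowest p. Those of Hmgcs1, Mvd, Fdps, Ebp and Acaca were added after their values were seen. Members and lists were chosen with earlier results of these data known. Library totals ran from 10156071 to 84472229 counts, and no 2 of the 96 replicate pairs agreed within sampling noise (smallest chi-square per degree of freedom 8.26). One gene of the further pathway list is counted but not reported by name here.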

Additional observations from a re-analysis of the deposited data

Results flagged for a closer look

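In groups of 4 libraries, 1 library stood apart from the other 3 (its gap to the nearest, over the range of the 4, was above Dixon's critical value) in 8 of 128 groups examined, over 8 measures (the mean of the sterol, fatty acid and LXR target genes, and 5 genes), where chance gives 1 in 20, or 6.4. Scd1 stood at 41.5 CPM in replicate 4 of the hippocampal Night Ctr0 group, where the other 3 lay between 12.7 and 15.0 CPM. Sqle stood apart in replicate 3 of 3 groups, at 2.00 CPM in hippocampal Night Cogn (others 4.08 to 4.28), at 2.46 CPM in cortical Night Ctr1 (others 4.07 to 4.11) and at 2.78 CPM in cortical Day Ctr1 (others 1.66 to 1.81). Srebf1 stood at 24.0 CPM in replicate 4 of cortical Day Ctr0 (others 27.9 to 28.7), and Abca1 at 611 CPM in replicate 1 of the same group (others 788 to 820). Mylip stood at 256 CPM in replicate 2 of hippocampal Day Soci (others 212 to 219) and at 229 CPM in replicate 3 of cortical Day Ctr1 (others 204 to 207).

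The day-night change of Srebf1 differed between the regions by −0.29 on the log2 scale (hippocampus minus frontal cortex) in the test of the difference itself.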

How the results depend on the processing

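The counts of members lower in day kept within 1.5 times of 17 in both regions under median-of-ratios scaling, library totals alone (19 and 20), no count filter, DESeq2, the log2 library total, the condition, or the endothelial, choroid plexus or microglia score as a term, without loci over 1% of counts and without each replicate number in turn (14 to 19 in hippocampus, 14 to 16 in frontal cortex). Members higher in day, 4 in each region, came to 1 and 1 with library totals alone, to 2 in frontal cortex with the log2 library total, and to 2 to 3 in hippocampus and 2 to 4 in frontal cortex without a replicate number (2 without replicate 1 in hippocampus and without replicates 2 and 3 in frontal cortex). The marker score values of the report were the main exception. With the scores of single cell types, lower and higher members came to 7 and 2 (astrocyte), 3 and 1 (oligodendrocyte), 2 and 1 (border macrophage), 14 and 2 (choroid plexus) and 16 and 1 (microglia) in hippocampus, and to 4 and 1 (astrocyte), 12 and 1 (oligodendrocyte), 3 and 1 (neuron), 4 and 1 (border macrophage), 17 and 2 (choroid plexus) and 16 and 1 (microglia) in frontal cortex. With 6 scores together they came to 0 and 0 in hippocampus and 2 and 1 in frontal cortex, and with the microglia score as a seventh term, added after seeing the data, to 0 and 0 and to 6 and 1. The share of all genes fell alongside. In the order above, 9.7%, 8.21%, 2.25%, 10.7% and 11.8% of all genes were lower and 14.7%, 12.4%, 1.51%, 14.6% and 11.7% higher in hippocampus, and 9.61%, 14.2%, 8.14%, 4.13%, 18.6% and 12.8% lower and 11.7%, 15.3%, 11.5%, 3.47%, 18% and 12.3% higher in frontal cortex. With 6 scores 0.754% and 4.95% of all genes were lower and 0.605% and 6.72% higher in the 2 regions, and with 7 scores 1.11% and 8.3% lower and 0.927% and 11.2% higher. The cause of these losses was not tested. With replicate 4 alone (8 hippocampal libraries, added after seeing the data) 0 and 0 passed, with 0.736% of all genes past the threshold.

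The labels share replicate numbers across groups. Deviations from group means gave same-numbered libraries a median correlation of 0.02 in hippocampus and 0.03 in frontal cortex (over 0.1 in 39 and 48 of 112 pairs). Libraries of other numbers in a region had a median of −0.02, over 0.1 in 211 of 672 pairs. Between the regions, within a phase and condition, 12 of 32 same-numbered and 32 of 96 other-numbered pairs were over 0.1. The ranges of these correlations overlapped, so they cannot decide whether a number stands for a shared animal or batch. With the replicate number as a block 17 members were lower and 4 higher in day in both regions. Each hippocampal library was also set against the 4 cortical libraries of its phase and condition. Of these 32 libraries 12 correlated best with the cortical library of their own number.

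Between conditions 2 members passed in hippocampus with library totals alone, where 23% of all genes passed, and 0 under the other alternatives. Members higher in hippocampus than in frontal cortex, 2 in the report, came to 1 with median-of-ratios scaling, DESeq2, the log2 library total, the abundant loci left out or the 3 largest libraries left out (added after seeing the data), to 0 with library totals alone, no count filter, the oligodendrocyte score or the 6 scores, and to 0 to 1 without a replicate number. Members lower in hippocampus, 5 in the report, came to 13 with library totals alone, 3 without a count filter, 1 with the log2 library total, 2 with the astrocyte score, 1 with the 6 scores and 1 to 5 without a replicate number (2, 1 and 3 without replicates 2, 3 and 4). The share of all genes lower in hippocampus, 6.17% in the report, was 10.5% with library totals alone, 2.7% without a count filter, 3.36% with the log2 library total, 9.61% with the astrocyte score, 2.45% with the 6 scores and 4.38%, 3.07% and 5.31% without replicates 2, 3 and 4. The share higher, 10.4% in the report, ranged from 5.31% with library totals alone to 10.3% with DESeq2 over the alternatives just named for higher members, and from 3.91% to 13.8% without a replicate number. Members whose change was lower in hippocampus, 1 in the report, came to 0 with library totals alone or without the 3 largest libraries, to 2 with the 6 scores and to 0 to 1 without a replicate number. The share of all genes with a lower change, 0.859% in the report, was 0.871% with library totals alone and 0.563% without the 3 largest libraries. It was 6.07% with the 6 scores and 0.0502% to 1.23% without a replicate number. The region difference of Srebf1 turned to −0.00856 with library totals alone. Library totals alone moved the median log2 change of all genes to −0.14 in hippocampus and −0.09 in frontal cortex, and turned the split of all genes from 23.4% higher and 18.8% lower to 1.69% and 26% in hippocampus and from 20.6% and 21.3% to 4.36% and 22.8% in frontal cortex.

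Among the members past the threshold in the report, 21 in each region, 16 in hippocampus and 18 in frontal cortex kept one sign under every alternative run, and 0 and 3 also passed the threshold under every one. The shares of all genes that did so were not counted. The values of the log2 change that took the other sign follow.

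In hippocampus these were the following. With the 6 scores together, Abcg1 gave −0.135, Acat2 0.134, Ebp −0.0812, Insig1 0.0232, Nr1h3 0.135, Scap −0.005, Srebf2 0.0314 and Tm7sf2 0.0857. With the 7 scores together, Abcg1 gave −0.214, Acaca 0.00844, Acat2 0.135, Ebp −0.146, Nr1h3 0.223, Scap −0.0235, Srebf2 0.00879 and Tm7sf2 0.132. With DESeq2, Abcg1 gave −0.0267 and Scap −0.0252. With the astrocyte score, Abcg1 gave −0.0338, Acat2 0.00593, Cyp51 0.0218, Insig1 0.0292, Nr1h2 0.0124, Nr1h3 0.00741, Scd2 0.00679, Srebf2 0.00899 and Stard4 0.0177. With the border macrophage score, Abcg1 gave −0.102, Acat2 0.0328, Ebp −0.0166, Nr1h2 0.00781, Nr1h3 0.0129 and Tm7sf2 0.112. With the choroid plexus score, Abcg1 gave −0.0318 and Fdps 0.00591. With the endothelial score, Abcg1 gave −0.0111. With library totals alone, Abcg1 gave −0.157, Insig2 −0.011 and Scap −0.15. With the log2 library total as a term, Abcg1 gave −0.005. With the microglia score, Abcg1 gave −0.179, Fdps 0.024, Nr1h2 0.00413, Nr1h3 0.173 and Tm7sf2 0.0962. With the neuron score, Abcg1 gave −0.0249 and Nr1h2 0.0137. With no count filter, Abcg1 gave −0.0257 and Scap −0.0231. With the oligodendrocyte score, Abcg1 gave −0.08, Nr1h2 0.0307, Nr1h3 0.149 and Srebf2 0.0203. With replicate 4 alone, Abcg1 gave −0.103, Scap −0.011 and Tm7sf2 0.0949. With median-of-ratios size factors, Abcg1 gave −0.0261 and Scap −0.0243. With the abundant loci left out, Abcg1 gave −0.0261 and Scap −0.025.

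In frontal cortex they were the following. With the 6 scores together, Abca1 gave −0.0129, Abcg1 −0.222, Elovl6 0.0492, Insig2 −0.0291, Nr1h2 0.0881 and Nr1h3 0.242. With the 7 scores together, Abca1 gave −0.027, Abcg1 −0.239, Elovl6 0.0485, Insig2 −0.0461, Nr1h2 0.0887, Nr1h3 0.271 and Tm7sf2 0.00966. With the astrocyte score, Abcg1 gave −0.118, Acat2 0.0288, Elovl6 0.162, Hmgcs1 0.104, Msmo1 0.0469, Nr1h2 0.00358, Nr1h3 0.126, Nsdhl 0.0207 and Stard4 0.0293. With the border macrophage score, Abcg1 gave −0.0707. With the choroid plexus score, Abcg1 gave −0.0212 and Nr1h3 0.0141. With library totals alone, Abcg1 gave −0.0597 and Scap −0.0268. With the log2 library total as a term, Abcg1 gave −0.019. With the microglia score, Abcg1 gave −0.175, Nr1h3 0.188 and Scap −0.0121. With the neuron score, Abcg1 gave −0.111, Acat2 0.0291, Elovl6 0.187, Hmgcs1 0.0233, Nr1h2 0.0911, Nr1h3 0.177 and Srebf2 0.0291. With the oligodendrocyte score, Abcg1 gave −0.0605, Elovl6 0.12, Msmo1 0.0134, Nr1h2 0.000509 and Nr1h3 0.0129. With the abundant loci left out, Abcg1 gave −0.013.

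Without a replicate number, in hippocampus Abcg1 ranged from −0.0693 to −0.00101, Scap from −0.0713 to 0.00896, Nr1h2 from −0.0753 to 0.0119 and Fdps, which fell below the filter without replicates 1 and 3, from −0.111 to 0.0382. In frontal cortex without a replicate number Abcg1 ranged from −0.0394 to 0.0779, Acat2 from −0.179 to 0.0373, Msmo1 from −0.112 to 0.0253 and Nsdhl from −0.0771 to 0.0211.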
